A study of Mus musculus with 2 samples.

Results

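The CXC chemokine genes Cxcl1, Cxcl2 and Cxcl3 and the receptor genes Cxcr2, Cxcr4 and Ackr3 were followed through GR1+ cells of 4T1 tumors. These 6 genes were chosen by name from the 32285 genes listed in the count tables, and each was found once. 4T1 is a mouse mammary carcinoma line grown here in BALB/c mice, of 6 to 8 weeks of age per the labels, while the methods give a somewhat older age at injection. The parental line, 4T1P, gave tumors that did not respond to anti-PD1, an antibody against a brake on T cells. Its mutagenized derivative, 4T1M, gave tumors that did respond, and the sources differ on whether it is a clone or a multiclonal population. The labels name no treatment for the mice that gave these cells. GR1 is an antigen carried by Ly6G and Ly6C, and bead selection on it takes granulocytic and monocytic cells together. The labels give 5 mice pooled into each of the 2 droplet libraries, 1 per tumor type, while a legend in the study gives a smaller number, and animals cannot be told apart. No difference between 4T1M and 4T1P could be tested against a spread between mice. Every interval below is a 95% interval for counting error only.

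CXCL1, CXCL2 and CXCL3 are small secreted proteins that draw neutrophils from the blood into inflamed tissue by binding CXCR2, a G protein-coupled receptor on the neutrophil surface. Myeloid cells switch on their genes quickly when NF-κB is activated, and neutrophils that have arrived can secrete CXCL2 themselves and so recruit others. CXCR4 binds CXCL12 and holds neutrophils in the bone marrow, while ACKR3 is an atypical receptor that takes up CXCL12 without G protein signaling. In mice the balance between CXCR2 and CXCR4 governs release from the marrow and the return of aged neutrophils to it.

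The 3 ligand genes lie in a chemokine cluster on the plus strand of mouse chromosome 5 in GRCm38 (mm10), the build of the count tables, Cxcl1 and Cxcl2 as adjacent protein-coding genes and Cxcl3 farther off, with Cxcl15 in between. In the GENCODE M21 annotation of that build Cxcl3 spans chr5:90786103-90789600, Cxcl1 chr5:90891241-90893115 and Cxcl2 chr5:90903871-90905938. The receptor genes lie on chromosome 1, Cxcr2 at chr1:74153989-74161246 and Ackr3 at chr1:90203980-90216751 on the plus strand and Cxcr4 at chr1:128588199-128592293 on the minus strand. All are protein-coding, and the counts are of whole genes. The windows below, from 140 to 41 bases before the RefSeq transcription start, are shown because the results turn on how far these 3 genes run together. They are reference sequence (RefSeq promoters, GRCm38.p6), not read from the BALB/c mice. The capitals mark the run of 11 bases that all 3 ligand windows share.
Cxcl1, chr5:90891105-90891204, plus strand: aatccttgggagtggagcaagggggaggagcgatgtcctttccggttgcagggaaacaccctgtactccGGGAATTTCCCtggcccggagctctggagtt
Cxcl2, chr5:90903759-90903858, plus strand: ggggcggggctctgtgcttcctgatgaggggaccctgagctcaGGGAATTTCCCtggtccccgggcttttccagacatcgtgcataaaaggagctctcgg
Cxcl3, chr5:90785961-90786060, plus strand: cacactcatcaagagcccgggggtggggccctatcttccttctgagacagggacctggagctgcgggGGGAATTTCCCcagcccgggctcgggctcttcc
The run began 71 bases before the start of Cxcl1, 97 before Cxcl2 and 73 before Cxcl3, and it matched the NF-κB consensus on both strands, the matches overlapping. Within the 250 bases before the start, the same 11 bases stood in 14 of 32851 mouse promoters (0.0426%), and the consensus on either strand in 1281 (3.90%). The same 250 bases of Cxcr2, Cxcr4 and Ackr3 held no match to it. These are matches of letters, not measured sites.

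Counts are of UMIs (unique molecular identifiers), each standing for 1 captured RNA molecule. A barcode was kept when it held between 500 and 5000 genes and mitochondrial transcripts made up no more than 10% of it, which left 1726 of 2947 barcodes in 4T1P and 3461 of 5004 in 4T1M. The libraries held 21855657 and 24303957 UMIs. Barcodes were called neutrophils when S100a8 and S100a9, the calprotectin genes, made up at least 1.5% of UMIs and C1qa, C1qb, C1qc and Apoe under 0.5%. They were called macrophages when S100a8 and S100a9 stayed under 1.5% and C1qa, C1qb, C1qc, Apoe, Csf1r, Cd68 and Fn1 reached 0.3%. This gave 612 neutrophils in 4T1P and 1686 in 4T1M, at a median of 3054.5 and 2957.5 UMIs, and 798 and 976 macrophages, at 9727 and 9213.5 UMIs. Of the other retained barcodes, 105 and 127 held at least 3 UMIs of T or B cell genes and are called lymphocyte-marker cells, which serve as the background for the ligands and Cxcr2, while 211 and 672 belonged to neither class. Markers outside the rule followed the names. The summed level of 8 neutrophil genes, among them Csf3r and Ly6g, was 17387 and 14422 CPM (UMIs of the gene per 1e6 UMIs of the class) in neutrophils against 320 and 431 in macrophages, and that of 8 monocyte and macrophage genes 1945 and 1655 against 18080 and 14697, all 8 genes of each list being detected in both classes. The barcodes in neither class carried both kinds, with 3056 and 4115 CPM of the neutrophil genes and 4271 and 3601 CPM of the macrophage genes. The 3 epithelial genes that mark tumor cells summed to 69.1 CPM in neutrophils of 4T1P and 12.6 in those of 4T1M, and their part in the comparisons of the libraries was not tested. 5 barcodes occurred in both libraries, 3 of them retained in both.

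Cxcl2 was a major transcript of the neutrophils in both tumors. In the 4T1P neutrophils it took 34683 CPM (34452 to 34914), that is 3.47% of all UMIs, and in the 4T1M neutrophils 46282 CPM (46118 to 46447), or 4.63%. The macrophages had 11594 CPM in 4T1P and 13155 in 4T1M, and the barcodes in neither class 29197 and 45255. The lymphocyte-marker cells, which should not make it, held 349 CPM in 4T1P (305 to 397) and 1310 in 4T1M (1233 to 1391). The order was the same in both libraries, neutrophils first, the barcodes of neither class next, then macrophages, with no overlap between neighbouring counting intervals. The level in the lymphocyte-marker cells was thus higher in 4T1M, where 91 of 127 held a Cxcl2 UMI against 46 of 105 in 4T1P. S100a8 and S100a9 together also made up 0.561% of UMIs in these cells of 4T1M against 0.0153% in 4T1P. Barcodes that hold a mixture of cells were not removed, so these values need not be background alone.

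Cxcl3 followed the order of Cxcl2. Its level in neutrophils was 1701 CPM in 4T1P (1650 to 1753) and 2574 in 4T1M (2535 to 2613). Macrophages held 569 and 673 CPM, the barcodes of neither class 1504 and 2175, and the lymphocyte-marker cells 4.53 and 154. Neutrophils again stood first and macrophages below the barcodes of neither class, and no neighbours overlapped.

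Cxcl1 had the opposite order. Macrophages held 2534 CPM in 4T1P (2501 to 2568) and 2439 in 4T1M (2408 to 2471), while neutrophils held 386 (362 to 412) and 618 (599 to 637). The barcodes of neither class lay between them at 1967 and 2186 CPM, and the lymphocyte-marker cells at 16.6 and 222. The Cxcl1 level in macrophages was thus several times that in neutrophils in each library, although it is the nearest protein-coding neighbor of Cxcl2.

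**Figure D1:**
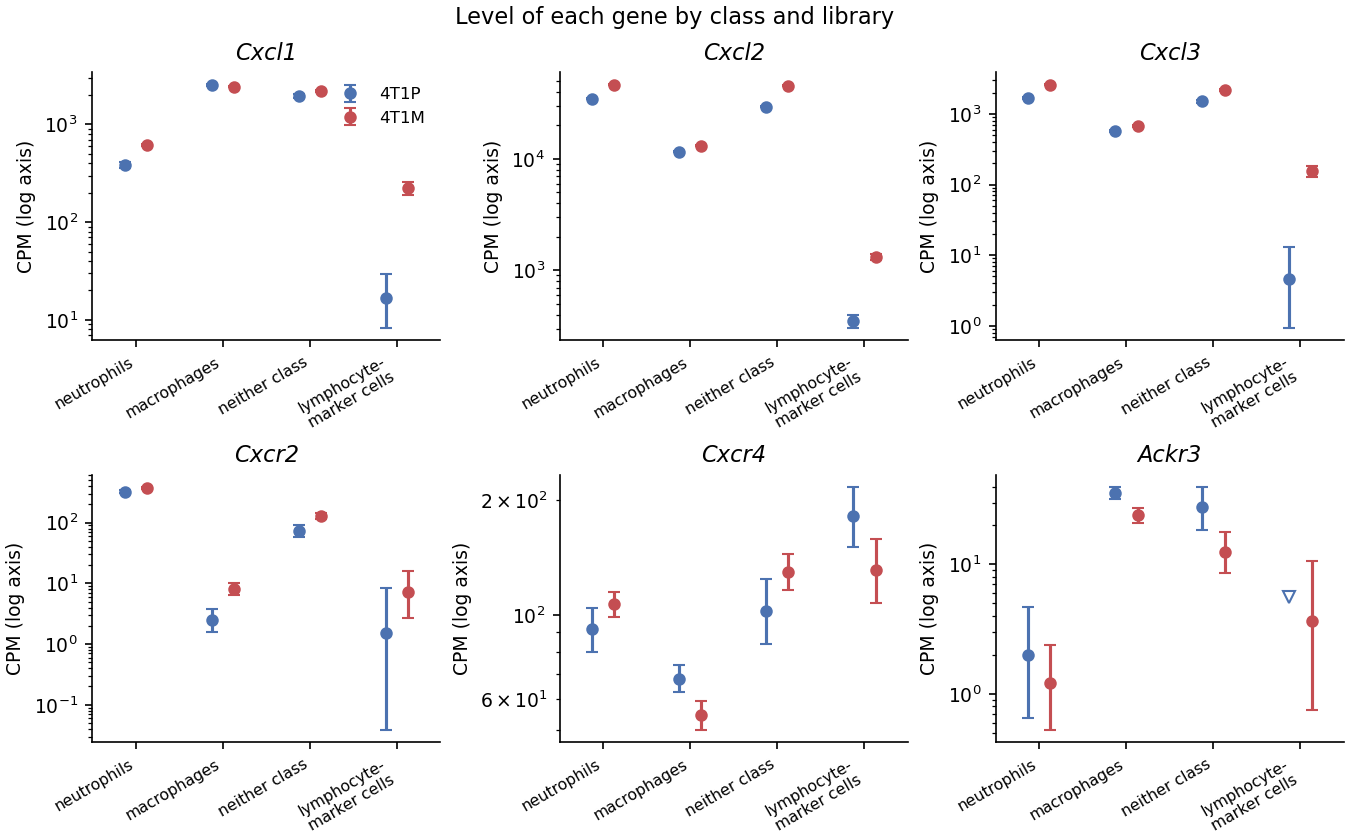
Level of the 6 genes (CPM, log axis) in neutrophils, macrophages, barcodes of neither class and lymphocyte-marker cells of 4T1P (blue) and 4T1M (red); bars are 95% Poisson intervals for counting error, and the open triangle is the upper limit where no UMI was seen. Cxcl2, Cxcl3 and Cxcr2 are highest in neutrophils and Cxcl1 and Ackr3 in macrophages in both libraries.

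Cxcr2, the receptor of all 3 ligands, marked the neutrophils. Its level there was 325 CPM in 4T1P (303 to 348) and 377 in 4T1M (362 to 392). The barcodes of neither class held 73.8 and 130.0 CPM. Macrophages had 2.51 CPM in 4T1P (1.57 to 3.80, 22 UMIs) and 8.03 in 4T1M (6.31 to 10.1, 75 UMIs), which overlapped with 1.51 (0.0382 to 8.41) and 7.27 CPM (2.67 to 15.8) in the lymphocyte-marker cells. The macrophage level of Cxcr2 is therefore not told apart from background. The lymphocyte-marker values rest on 1 and 6 UMIs, and intervals so wide cannot decide whether it is background. Macrophages with a Cxcr2 UMI (15 cells in 4T1P and 48 in 4T1M) held 1847 and 1696 CPM of the 8 neutrophil genes and 0.438% and 0.528% of S100a8 and S100a9, whereas those without held 281 and 352 CPM and 0.0444% and 0.0819%. Their median depth was also greater, at 15790 and 12186 UMIs against 9365 and 9109.

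Cxcr4 was found in all classes at levels of the same order. Neutrophils held 91.5 CPM in 4T1P (80.0 to 104) and 107 in 4T1M (98.8 to 115), and macrophages 68.0 (62.6 to 73.7) and 54.5 (49.9 to 59.4). In the lymphocyte-marker cells, a type known to carry the receptor, it reached 181 and 131 CPM, and in the barcodes of neither class 102 and 129.6. Neutrophils and the barcodes of neither class overlapped in 4T1P, as did the latter and the lymphocyte-marker cells in 4T1M. Macrophages had the lowest level in both libraries.

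Ackr3 was a transcript of the macrophages. It stood at 35.7 CPM in 4T1P (31.9 to 39.9, 313 UMIs) and 24.1 in 4T1M (21.0 to 27.4, 225 UMIs). Neutrophils held 1.998 and 1.22 CPM, from 5 and 8 UMIs in all, which overlapped with 0 CPM (an upper limit of 4.53 by 3 counts) and 3.64 in the lymphocyte-marker cells. An Ackr3 UMI was seen in 0.817% and 0.356% of neutrophils unthinned. At an equal depth of 1000 UMIs a cell it was seen in 0 of 612 and 2 of 1682, a depth too low to limit the share of neutrophils that express it. The barcodes of neither class held 27.6 CPM in 4T1P, overlapping with macrophages, and 12.5 in 4T1M, below them.

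Macrophages held most of the Cxcl1 UMIs in both libraries, and neutrophils a larger share of all 3 ligands in 4T1M than in 4T1P. Of all Cxcl1 UMIs in retained barcodes, 88.2% were in macrophages and 3.84% in neutrophils in 4T1P, and 69.9% and 12.5% in 4T1M. Of the Cxcl2 UMIs, 39.8% were in neutrophils in 4T1P and 56.0% in 4T1M. The Cxcl3 shares of neutrophils were close to these, 39.5% and 58.6%. Such shares depend on the number of cells captured as well as on the level in each class. Neutrophils were 35.5% of retained barcodes in 4T1P and 48.7% in 4T1M. They held 2502947 of 12948585 retained UMIs in 4T1P and 6580005 of 19302483 in 4T1M. The cells captured in turn depend on the GR1 selection and on the barcode filters, and their part in the shares was not tested. Neutrophils held 89.3% and 85.7% of the Cxcr2 UMIs, and macrophages 90.5% and 84.0% of those of Ackr3. Cxcr4 was divided, with 21.8% of its UMIs in neutrophils and 56.8% in macrophages of 4T1P, and 42.5% and 30.9% in 4T1M.

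Set against macrophages of the same library, neutrophils had a higher Cxcl2 level by 1.58 on the log2 scale in 4T1P (1.57 to 1.59) and by 1.82 in 4T1M (1.81 to 1.82). Cxcl3 was higher by 1.58 (1.52 to 1.64) and 1.94 (1.89 to 1.98). The log2 ratio of Cxcl1 was -2.71 (-2.81 to -2.62) in 4T1P and -1.98 (-2.03 to -1.93) in 4T1M. Cxcr2 gave 6.99 and 5.54, Cxcr4 0.43 and 0.97, and Ackr3 -4.02 and -4.22. The median of the 3 ligands was 1.58 in 4T1P and 1.815 in 4T1M, against -1.13 and -1.03 over all 11750 and 12173 genes compared. At 4-fold, 1 of the 6 genes was higher in neutrophils of 4T1P (Cxcr2) and 2 were lower (Cxcl1 and Ackr3), where 5.12% of all genes were that much higher and 31.3% that much lower. In 4T1M 1 was higher (Cxcr2) and 1 lower (Ackr3), against 5.69% and 30.1%. Scaling by DESeq2 size factors in place of totals moved every ratio between classes up by 0.81 and 0.83, which changed the counts. Cxcl2 (2.39 and 2.65) and Cxcl3 (2.39 and 2.77) then passed 4-fold beside Cxcr2, so that 3 genes were higher in both libraries, where 9.86% and 11.01% of all genes were. Cxcl1, at -1.91 and -1.15, no longer passed it in 4T1P, and 1 gene, Ackr3, was lower in both, where 17.7% and 15.5% of all genes were. TMM factors gave the same 3 higher genes and kept Cxcl1 past 4-fold lower in 4T1P at -2.03.

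The comparison of 4T1M with 4T1P addressed whether the chemokine genes differ between tumors that respond to anti-PD1 and tumors that do not. In neutrophils all 3 ligands stood higher in the 4T1M library. Cxcl1, at 386 CPM in 4T1P and 618 in 4T1M, had a log2 ratio of 0.68 (0.58 to 0.78). Cxcl3 had 0.60 (0.55 to 0.65) and Cxcl2 0.42 (0.41 to 0.43). Their median was 0.60, against 0.03 over all 9994 genes compared. The lymphocyte-marker cells also held more Cxcl1 in 4T1M, at 222 CPM against 16.6 in 4T1P. Their Cxcl2 was 1310 against 349 CPM and their Cxcl3 154 against 4.53. In 4T1M these Cxcl1 and Cxcl3 UMIs came from 17 and 14 of 127 cells. Whether they are background or come from mixed barcodes was not tested, nor was their part in the neutrophil ratios. Past 1.5-fold were 2 of the 6 genes, Cxcl1 and Cxcl3, the latter barely, where 14.3% of all genes were that much higher. Ackr3 was past it in the other direction from 5 and 8 UMIs, with a ratio of -0.77 and an interval from -2.51 to 1.24, where 9.93% of all genes were that much lower. Its ratio was 0.90 without the deepest barcodes, so no direction is read from it. The receptors differed less between the libraries. Cxcr2 had a log2 ratio of 0.21 (0.10 to 0.33) and Cxcr4 of 0.22 (0.0023 to 0.44).

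The Cxcl1 ratio in neutrophils depended on the deepest cells. It was 0.30 without the 8% of barcodes with most UMIs in each class and library and 0.36 with every cell weighted equally, both under 1.5-fold. Cxcl3 gave 0.61 and 0.53, the latter also under 1.5-fold, and Cxcl2 0.33 and 0.38. The ligand median went down with them, to 0.33 and 0.38. All 3 ratios stayed above 0 in the 13 alternative settings run, and those of Cxcr2 in neutrophils ranged from 0.16 to 0.23.

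In macrophages the ligand genes were nearer to each other in the 2 libraries. The log2 ratio was -0.06 for Cxcl1 (-0.08 to -0.03), 0.18 for Cxcl2 (0.17 to 0.19) and 0.24 for Cxcl3 (0.19 to 0.30), with a median of 0.18 against -0.03 over all 12352 genes compared. No ligand was past 1.5-fold. With the macrophage genes at 1% of UMIs or more, the Cxcl1 ratio was -0.36 and that of Cxcl3 -0.31, so that neither kept its value. Cxcr2 was the 1 gene of the 6 past 1.5-fold, higher in 4T1M by 1.66 (0.98 to 2.43), where 7.37% of all genes were that much higher and 7.93% that much lower. That ratio rests on 22 and 75 UMIs, at a level not told apart from background above. The 8 neutrophil genes also stood higher in the 4T1M macrophages, at 431 against 320 CPM, and S100a8 with S100a9 at 0.108% against 0.0544%, and their part in the Cxcr2 ratio was not tested. Cxcr4 was lower in 4T1M by a log2 ratio of -0.32 (-0.49 to -0.15) and Ackr3 by -0.57 (-0.82 to -0.32). With a mitochondrial limit of 5% Cxcr4 gave 0.01 and Ackr3 -0.28.

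**Figure D2:**
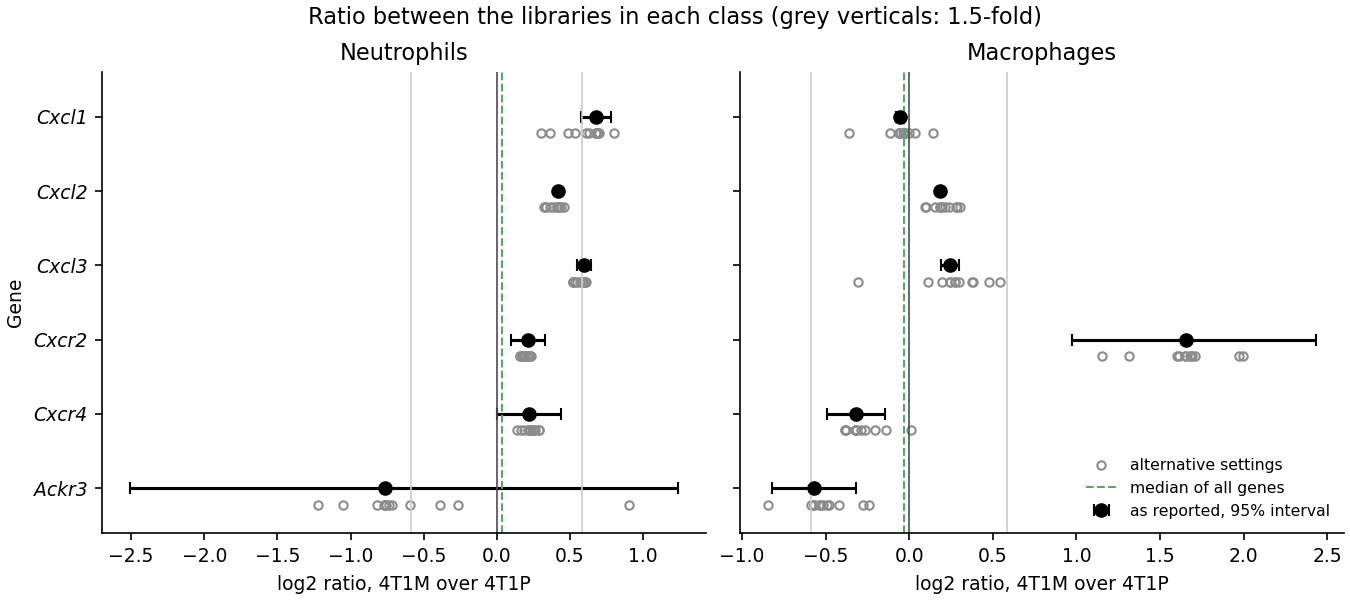
Log2 ratio of 4T1M over 4T1P for each gene in neutrophils (left) and macrophages (right); black points carry 95% intervals for counting error, grey open circles are the alternative settings, the dashed green line is the median of all genes and the grey verticals mark 1.5-fold. In neutrophils the ligands lie at 0.68, 0.42 and 0.60 to the right of 0, while in macrophages Cxcl1 lies at -0.06.

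The 3 ligands were spread differently over single cells. Cxcl2 was detected in nearly all neutrophils. At 1000 UMIs a cell it was detected in 95.3% of 4T1P neutrophils (93.3 to 96.8, n = 612) and 98.3% of 4T1M neutrophils (97.5 to 98.8, n = 1682), against 7.62% (n = 105) and 26.2% (n = 126) of the lymphocyte-marker cells, whose median depth before thinning was 4863 and 5662 UMIs. The unthinned shares in neutrophils were 96.9% and 99.0%. Its amount per cell was graded. The median neutrophil gave 3.10% of its UMIs to Cxcl2 in 4T1P and 3.88% in 4T1M, and the top 10% of cells gave over 7.94% and 10.2%. Cells with more than 10% of their UMIs in Cxcl2 numbered 27 of 612 in 4T1P (4.41%) and 180 of 1686 in 4T1M (10.7%), and the highest reached 18.4% and 23.4%.

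Cxcl1 was a transcript of few neutrophils. At 1000 UMIs it was found in 9.97% of them in 4T1P (7.71 to 12.6) and 15.8% in 4T1M (14.1 to 17.7), against 1.91% and 2.38% of lymphocyte-marker cells, and unthinned in 20.1% and 24.7%. The 10% of neutrophils with most Cxcl1 held 93.3% of its UMIs in 4T1P and 91.5% in 4T1M, whereas for Cxcl2 the corresponding cells held 31.1% and 32.0%. In macrophages Cxcl1 was common, detected in 52.8% (49.3 to 56.4, n = 772) and 46.9% (43.6 to 50.1, n = 939), and the top 10% held 57.4% and 57.1% of the UMIs. Neutrophils with at least 5 Cxcl1 UMIs were 37 in 4T1P and 152 in 4T1M. They held 3291 and 2266 CPM of the macrophage genes against 1763 and 1524 in neutrophils without a Cxcl1 UMI, at a median depth of 4267 and 3979 against 2908 and 2820 UMIs, and 14645 and 9756 CPM of the neutrophil genes against 17452 and 15860. The part of RNA from macrophages in these cells was not tested.

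Cxcl3 lay between them in neutrophils. It was detected in 36.1% of neutrophils in 4T1P (32.3 to 40.1) and 44.2% in 4T1M (41.8 to 46.6), against 0.952% and 2.38% of the lymphocyte-marker cells, and unthinned in 47.1% and 56.4%. In macrophages the shares were 14.2% (11.9 to 16.9) and 19.1% (16.6 to 21.7), and the top 10% of macrophages held 90.5% and 86.4% of the Cxcl3 UMIs. The concentration was thus reversed between the classes, with Cxcl1 in few neutrophils and many macrophages and Cxcl3 in more neutrophils than macrophages.

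**Figure D3:**
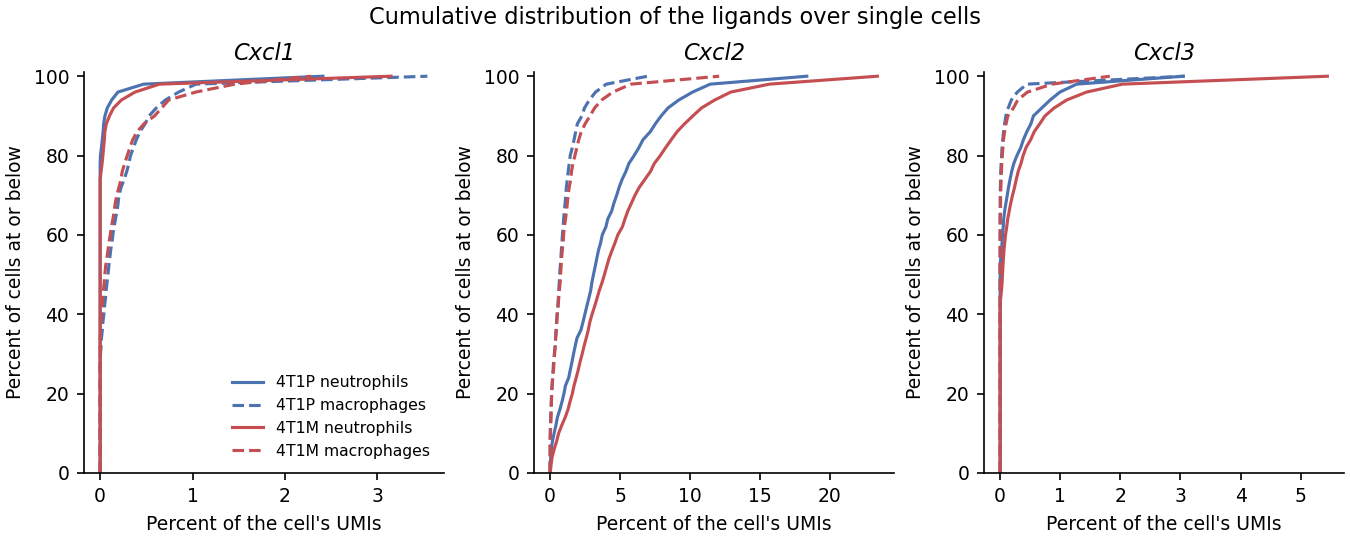
Cumulative distribution over single cells of the percent of a cell's UMIs taken by Cxcl1, Cxcl2 and Cxcl3 in neutrophils (solid) and macrophages (dashed) of 4T1P (blue) and 4T1M (red). For Cxcl2 the neutrophil curves rise over a wide range with medians of 3.10% and 3.88%, while for Cxcl1 they stand at 0 for most neutrophils.

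Of the receptors, Cxcr2 was detected at 1000 UMIs in 25.2% of neutrophils in 4T1P (21.8 to 28.8) and 28.5% in 4T1M (26.3 to 30.7), intervals that overlap, and unthinned in 51.1% and 54.9%. The lymphocyte-marker cells gave 1 of 105 and 0 of 126 cells. Cxcr4 was seen in 10.6% (8.29 to 13.3) and 12.0% (10.5 to 13.7) of neutrophils, and unthinned in 27.0% and 27.7%. In macrophages it was seen in 6.35% (4.73 to 8.31) and 4.47% (3.24 to 6.00), again overlapping between the libraries. Ackr3 was found in 1.81% (0.995 to 3.02) and 2.45% (1.56 to 3.65) of macrophages. Its unthinned shares, 15.4% and 10.2%, ran the other way, as did its CPM, so no order of the libraries is read from the thinned shares.

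Within the neutrophils the levels of Cxcl1, Cxcl2, Cxcr2 and Cxcr4 varied with the amount of S100a8 and S100a9. The Cxcl1 level in 4T1P was 853 CPM in cells with 1.5 to 5% of UMIs in these genes, 670.2 with 5 to 10% and 152 with 10% or more, and in 4T1M 1129.6, 728 and 261. Cxcr4 ran the same way, from 132 to 71.7 CPM in 4T1P and from 148 to 69.8 in 4T1M between the outer bands. Cxcr2 ran opposite to them, from 239 to 349 CPM in 4T1P and from 281 to 431 in 4T1M. Cxcl2 was lowest in the highest band in both libraries, at 25928 and 29604 CPM, though in 4T1P its peak was the middle band with 52288. Cxcl3 had no common order, with 1473, 2189 and 1611 CPM from the lowest to the highest band in 4T1P and 2931, 3055 and 2109 in 4T1M. Part of any decline is arithmetic, since the S100a8 and S100a9 UMIs belong to the same totals. The lowest band held 22.9% of 4T1P neutrophils (140 of 612) and 33.0% of 4T1M neutrophils (557 of 1686).

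Within these bands the ratio of 4T1M over 4T1P was not uniform. For Cxcl1 it was 0.40 (0.25 to 0.56), 0.12 (-0.06 to 0.30) and 0.78 (0.57 to 0.999) from the lowest to the highest band. Cxcl3 gave 0.99, 0.48 and 0.39, each interval above 0. Cxcl2 gave 0.53, 0.14 and 0.19. All ligand ratios were thus positive in each band, though the Cxcl1 interval held 0 in the middle band. Those of Cxcr2 were positive too, at 0.23, 0.19 and 0.30, and its interval excluded 0 only in the highest band (0.16 to 0.45). The intervals of Cxcr4 held 0 in all 3 bands.

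**Figure D4:**
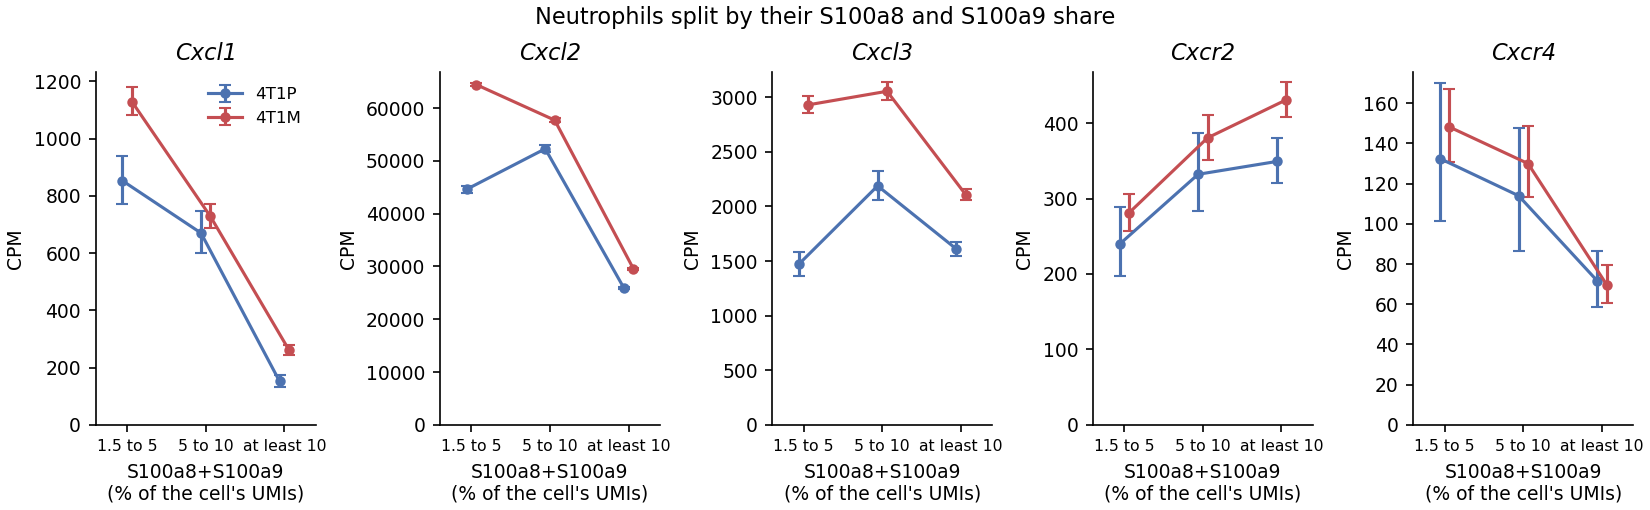
Level (CPM) of Cxcl1, Cxcl2, Cxcl3, Cxcr2 and Cxcr4 in neutrophils split by the percent of their UMIs in S100a8 and S100a9, for 4T1P (blue) and 4T1M (red), with 95% Poisson intervals for counting error. Cxcl1 and Cxcr4 are lower and Cxcr2 higher in the band of 10% or more than in that of 1.5 to 5%.

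Neutrophils with at least 0.3% of UMIs in Camp, Ngp and Ltf, secondary granule genes of immature cells, numbered 31 in 4T1P and 60 in 4T1M. Their Cxcl2 level was 12657 and 18977 CPM, against 39439 and 49885 in the other neutrophils. Cxcl1 was 94.5 and 360 against 449 and 652, Cxcl3 583 and 899.5 against 1942 and 2795, and Cxcr4 29.2 and 37.8 against 105 and 116. Cxcr2 was closer, 254 (209.5 to 306) and 278 (242 to 318) against 341 (316 to 367) and 389.8 (374 to 406). The ligand genes, Cxcr4 and, by less, Cxcr2 were thus lower in the granule-rich cells of both libraries, with no overlap of the Cxcr2 intervals. Those cells were also deeper, with a median of 12450 and 11126 UMIs against 2960 and 2899. Without them the neutrophil ratios of 4T1M over 4T1P were 0.54 for Cxcl1, 0.34 for Cxcl2 and 0.52 for Cxcl3, all under 1.5-fold.

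A cell that makes both ligand and receptor could in principle signal to itself, and the detection of both in the same neutrophil was compared with the product of the single shares. Cxcl2 and Cxcr2 were detected together in 23.0% of 4T1P neutrophils (19.8 to 26.6) and 27.7% of 4T1M neutrophils (25.6 to 29.9), and the products were 24.0% and 28.0%. For Cxcl3 and Cxcr2 the shares were 7.68% (5.70 to 10.1) and 12.0% (10.5 to 13.7) beside products of 9.09% and 12.6%. For Cxcl1 and Cxcr2 they were 2.94% (1.75 to 4.61) and 3.92% (3.05 to 4.97) beside 2.51% and 4.504%. Each product lay inside the interval of its joint share. For Cxcl2 that says little, since a gene seen in nearly all cells leaves the joint share almost no room to differ. Cxcl2 was detected in 91.6% of the Cxcr2-detected neutrophils against 96.5% of the others in 4T1P, and in 97.3% against 98.7% in 4T1M. The mean amount of Cxcl2 in Cxcr2-detected cells was 34.2 UMIs per 1000 against 38 in the others in 4T1P, and 41.8 against 51.2 in 4T1M. The medians were 31.5 against 30 in 4T1P and 34 against 42 in 4T1M. Cxcr2 and Cxcr4 met in 2.78% (1.63 to 4.41) and 3.98% (3.10 to 5.03) of neutrophils beside products of 2.67% and 3.42%.

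In macrophages Cxcl1 was found with each of the other ligands more often than the product of the single shares. Cxcl1 and Cxcl2 shared 51.6% of 4T1P macrophages (48.0 to 55.1) and 46.3% of 4T1M macrophages (43.1 to 49.6), beside products of 44.1% and 40.7%. Cxcl1 and Cxcl3 shared 11.4% (9.24 to 13.8) and 12.7% (10.6 to 15.0), beside 7.53% and 8.93%. In these 4 cases the product fell below the interval. For Cxcl2 and Cxcl3 it did not, the joint share being 14.0% (11.6 to 16.6) and 18.1% (15.7 to 20.7) beside 11.9% and 16.6%. That says little, since the joint share cannot exceed the Cxcl3 share, 14.25% and 19.06%, and Cxcl2 was seen in most cells. Cxcl2 was detected in 98.18% of the Cxcl3-detected macrophages in 4T1P and 94.97% in 4T1M, against 83.42% and 86.79% of all macrophages. The same pair, with the same limit, shared 36.1% (32.3 to 40.1) and 44.0% (41.7 to 46.5) of neutrophils beside 34.4% and 43.5%. In neutrophils Cxcl1 and Cxcl2 shared 9.97% and 15.6% beside 9.50% and 15.5%, and Cxcl1 and Cxcl3 4.08% (2.66 to 5.97) and 8.68% (7.38 to 10.1) beside 3.599% and 6.995%, the product falling below the interval in 4T1M only. Ackr3 and Cxcl3 were found together in 12 of 939 macrophages of 4T1M, 1.28% (0.662 to 2.22) beside a product of 0.467%, and in 3 of 772 of 4T1P, 0.389% beside 0.258%. Macrophages with an Ackr3 UMI held 1273 CPM of Cxcl3 in 4T1P and 1777 in 4T1M, against 348 and 490.2 in those without, and were deeper, at a median of 18045 and 12192 against 7633 and 8482 UMIs. Cxcl12, the ligand of CXCR4 and ACKR3, was at 0 UMIs in the macrophages of both libraries and at 2 and 3 UMIs in all neutrophils. The barcodes of neither class held 33 UMIs of it in 4T1P (32.5 CPM, 22.4 to 45.6), from 4 of 211 barcodes, and 1 UMI in 4T1M.

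**Figure D5:**
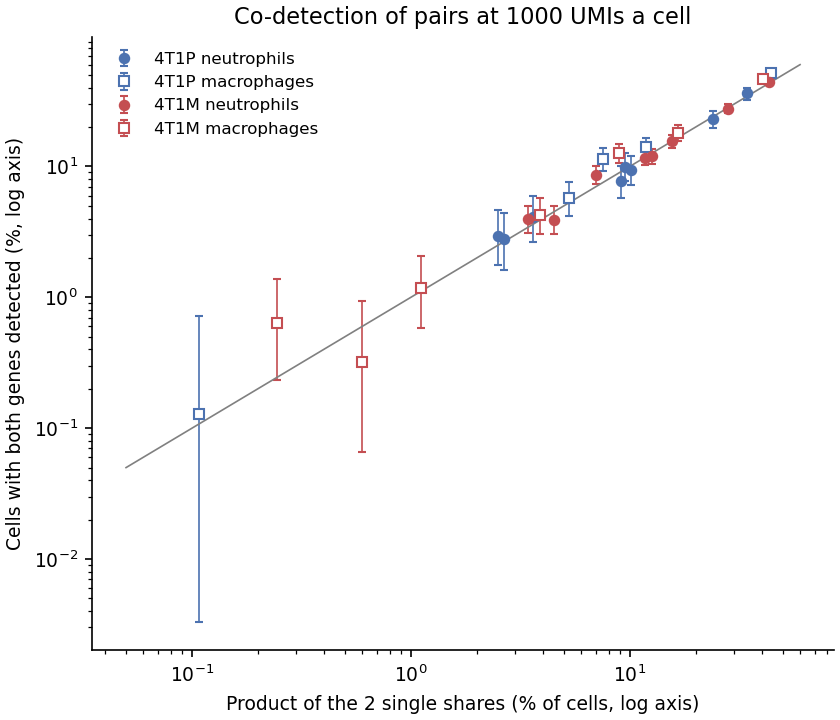
Percent of cells with both genes of a pair detected at 1000 UMIs a cell against the product of the 2 single shares (both axes log), for each ligand with Cxcr2, Cxcl2 with Cxcr4, Cxcr2 with Cxcr4 and the ligands with each other, where any cell held both, in neutrophils (filled circles) and macrophages (open squares) of 4T1P (blue) and 4T1M (red), with 95% Clopper-Pearson intervals; the line marks equality. Pairs of Cxcr2 with a ligand in neutrophils have intervals that hold the line, and pairs of ligands in macrophages have points above it.

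The genes whose levels across single neutrophils were most like those of the members were ranked by Pearson's r of log-scaled UMIs per 10000, over 612 cells of 4T1P and 1686 of 4T1M and 4080 genes. The cells of a library share its depth and free RNA, so these values describe the cells and carry no test. For Cxcl2 the leading gene was Nfkbia, which encodes the NF-κB inhibitor IκBα and is itself induced by NF-κB (r = 0.61 in 4T1P and 0.62 in 4T1M). Next were the chemokine gene Ccl3 (0.54 and 0.57) and Ccrl2, an atypical chemokine receptor (0.52 and 0.57). Cxcl3 was most like Cxcl2 (0.30 and 0.31), followed by Ccl3 (0.27 and 0.29) and Rgcc (0.27 and 0.24). For Cxcr2 the leading genes were Hp, encoding haptoglobin (0.42 and 0.36), Lrg1 (0.34 and 0.37) and Ifitm2 (0.34 and 0.33), and its r with Cxcl2 was -0.04 and -0.05. Cxcl1 and Cxcr4 had no gene that reached 0.2 in both libraries, and Ackr3 was detected in too few neutrophils to be ranked.

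In macrophages, over 798 and 976 cells and 8279 genes, Cxcl1 was most like Cxcl2 (r = 0.70 and 0.63), where the same pair had 0.16 and 0.19 in neutrophils. Il1a, an interleukin gene, and Nfkbia followed for Cxcl1, and Nfkbia (0.79 and 0.77) led for Cxcl2. Cxcl3 was most like Inhba, an activin subunit gene (0.44 and 0.54), then Ptgs2, the inducible cyclooxygenase (0.50 and 0.42), and Thbs1, encoding thrombospondin (0.44 and 0.46). Thbs1 also led for Ackr3 (0.38 and 0.23). Cxcr4 was most like Dusp1 (0.30 and 0.30), Klf6 (0.32 and 0.27) and Zfp36 (0.32 and 0.23), all early response genes. The cells again share a library and differ in depth, and the part of depth in these values was not tested.

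The rest of the pathway was read from 7 lists of 53 genes, of which 52 were in the count tables and Cxcl11 was not used here. In neutrophils 41 of the 52 had at least 10 UMIs in the libraries together. Of these, 4 were past 1.5-fold higher in 4T1M and 0 lower, beside the 14.3% and 9.93% of all genes. Among the other CXC ligands 2 of 5 were higher, Cxcl10 and Cxcl16. Cxcl10, an interferon-induced attractant of lymphocytes, had 117 CPM in 4T1P and 216 in 4T1M (log2 ratio 0.88, from 0.70 to 1.07). Cxcl16 had 18.0 (13.1 to 24.1) and 31.8 CPM (27.6 to 36.4), a ratio of 0.81 (0.35 to 1.32). Those levels overlapped with 30.2 (18.4 to 46.6) and 42.4 CPM (29.55 to 59.0) in the lymphocyte-marker cells, and macrophages held 449.5 and 561.5. The part of RNA from other cells in the Cxcl16 ratio was not tested. Of the adhesion genes 1 of 7 was higher, Icam1, whose product binds the integrins of leukocytes, at 113 and 251 CPM (1.16, from 0.97 to 1.34). Of 21 receptor signaling genes 1 was, Pik3r5, a subunit of the phosphoinositide 3-kinase below CXCR2, at 12.0 and 18.8 CPM (0.63, from 0.07 to 1.28), while Gnai2, the inhibitory G protein of these receptors, had -0.01 and the GTPase gene Rac2 -0.22.

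The other CXC ligands of CXCR2 were almost missing. Cxcl5 had 0 and 3 UMIs in neutrophils and 4 and 7 in macrophages, and Ppbp 6 and 0 in neutrophils and 10 and 27 in macrophages. Cxcr1, the sister receptor, stood at 38.4 CPM in neutrophils of 4T1P (31.1 to 46.8) and 36.0 in those of 4T1M (31.6 to 40.9), which overlap, and at 0.912 and 1.82 in macrophages. Mif, a cytokine that also binds CXCR4, had 624 and 676 CPM in neutrophils and 858 and 867 in macrophages. The 4 genes that act on NF-κB or on the stability of chemokine mRNA were all higher in the 4T1M neutrophils, none past 1.5-fold, with log2 ratios of 0.31 for Zfp36, 0.44 for Zc3h12a, 0.49 for Nfkbia and 0.50 for Nfkbiz. In macrophages those ratios were -0.35, 0.18, -0.02 and 0.05.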

How the data were processed

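GR1+ cells of 4T1P and 4T1M tumors were profiled in 1 pooled 10x Genomics library per tumor type. The authors aligned reads to mm10 with Cell Ranger (version 4.0.0 per the file headers and labels; the methods name another), and the deposited values are raw UMI counts per gene and barcode, without normalization. Neither the sequenced transcript end nor removal of doublets is given in the sources used here, and no doublets were removed.

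The 6 genes, the gene lists and the classes were chosen with earlier results of these data known. Named besides them were genes of the lists and, for members detected in at least 10% of a class in both libraries, the 3 genes with the highest mean Pearson's r (at least 0.2 in both). UMIs were summed per class and library, scaled to CPM and given exact Poisson intervals. Shares of cells, after thinning to 1000 UMIs (shallower cells left out, 0 and 4 neutrophils, 26 and 37 macrophages), have Clopper-Pearson intervals, and log2 ratios, with 0.5 UMI added, exact conditional intervals. Genes with at least 10 UMIs in the 2 sums were compared. With 1 library per group no test was run. Limits on zeros use 3 counts. Python 3.11.15 with scipy 1.17.1 was used, and edgeR 4.0.16 and DESeq2 1.42.0 for scaling factors only. The ratio intervals were tested only on simulated independent Poisson counts, the model they assume. That test cannot show how they do where UMIs gather in few cells, as here. Alternatives added after the data were seen were an S100a8 and S100a9 limit of 0.5%, totals without these genes, neutrophils without granule-rich cells and the ranking in macrophages; the splits by Cxcl1, Cxcr2 and Ackr3 UMIs were also chosen then.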

Additional observations from a re-analysis of the deposited data

Results flagged for a closer look

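For 2 genes the ratio of 4T1M over 4T1P lay on opposite sides of 0 in neutrophils and macrophages, with both counting intervals excluding 0. Cxcl1 had a log2 ratio of 0.68 (0.58 to 0.78) in neutrophils and -0.055 (-0.08 to -0.03) in macrophages. Its level in the lymphocyte-marker cells was 16.6 CPM in 4T1P and 222 in 4T1M, the latter from 17 of 127 cells. Whether these UMIs are background or come from mixed barcodes was not tested, nor was their part in the neutrophil ratio. Cxcr4 had 0.22 (0.0023 to 0.44) and -0.32 (-0.49 to -0.15). The difference between the classes was not tested, since each tumor type has 1 library, and the macrophage values of both genes changed sign under some settings given below.

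The barcodes that failed a filter on gene number or mitochondrial share, 1221 in 4T1P and 1543 in 4T1M, enter no comparison above, yet they carried more of the ligands and of Cxcr2 than the lymphocyte-marker cells did. In 4T1P they held 1038.6 CPM of Cxcl1, 7075 of Cxcl2, 232.5 of Cxcl3 and 30.1 of Cxcr2. In 4T1M they held 725 CPM of Cxcl1, 12604 of Cxcl2, 622 of Cxcl3 and 92.2 of Cxcr2.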

How the results depend on the processing

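No paired analysis was possible because each tumor type has 1 library, and for the same reason no replicate could be left out. The neutrophil ligand median of 4T1M over 4T1P (0.60) was 0.52 with S100a8 and S100a9 at 3%, 0.33 without the 8% deepest barcodes, 0.38 with cells weighted equally, 0.49 with S100a8 and S100a9 at 0.5%, 0.55 with totals without them and 0.52 without granule-rich cells. The macrophage median (0.18) was -0.31 with macrophage genes at 1%, 0.10 at a mitochondrial limit of 5%, 0.28 with no upper gene limit, 0.30 without the deepest barcodes, 0.19 without the 1% of cells with most member UMIs, 0.21 with TMM, 0.24 with DESeq2 factors, 0.28 with cells weighted equally and 0.15 with S100a8 and S100a9 at 0.5%. The median of neutrophils over macrophages in 4T1P (1.58) was 1.79 with macrophage genes at 1%, 0.83 at the 5% mitochondrial limit, 1.75 with no upper gene limit, 1.86 without the deepest barcodes, 2.26 with TMM, 2.39 with DESeq2 factors, 1.88 with cells weighted equally, 1.64 with S100a8 and S100a9 at 0.5% and 1.83 with totals without them. In 4T1M (1.815) these values were 2.11, 1.29, 1.88, 1.92, 2.56, 2.65, 2.03, 1.90 and 2.01, and 1.70 with S100a8 and S100a9 at 3% and 1.86 without the cells with most member UMIs. Cells with both Cxcl2 and Cxcr2, 23.0% and 27.7% at 1000 UMIs, were 14.4% and 15.8% at 500, 39.9% and 43.6% at 2000 and 49.8% and 54.4% unthinned. In macrophages the Cxcl1 ratio changed sign with no upper gene limit (0.033) and without the deepest barcodes (0.14), Cxcl3 with macrophage genes at 1% (-0.31) and Cxcr4 at the 5% mitochondrial limit (0.012), and in neutrophils Ackr3 did without the deepest barcodes (0.90). The cause was not tested. Of 294 values recomputed for single members, 289 kept their sign. Set against the counting intervals, 165 stayed inside, 125 moved outside and 4 changed sign where the interval excluded 0. The Cxcr2 ratio in neutrophils stayed within its interval in all 13 settings. TMM and DESeq2 factors raised the members past 4-fold higher in neutrophils than in macrophages from 1 to 3 in each library. Depth limits Ackr3 in neutrophils (5 and 8 UMIs) and Cxcr2 in macrophages (22 and 75).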

Other observations

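Some CXC ligands that do not act through CXCR2 differed between the macrophages of the tumors. Of 6 such ligands with enough UMIs, 1 was past 1.5-fold higher in 4T1M (Cxcl13) and 1 lower (Pf4). Pf4, encoding platelet factor 4, stood at 571 CPM in 4T1P (556 to 587) and 236 in 4T1M (227 to 247), a log2 ratio of -1.27. Cxcl14 was also lower in 4T1M, at 167 against 246 CPM (-0.56), whereas Cxcl16 was higher, at 561.5 against 449.5 CPM (0.32), both under 1.5-fold. Cxcl13, a B cell attractant, was at 0.798 CPM in 4T1P and 11.2 in 4T1M, from 7 and 105 UMIs. The lymphocyte-marker cells moved the same way at a far higher level, with 0 UMIs in 4T1P and 267 CPM (233 to 304, 220 UMIs) in 4T1M, and the part of their RNA in the macrophage value was not tested. Cxcl9 and Cxcl10, both interferon-induced, had ratios of 0.10 and -0.05 with intervals that held 0. Of 44 pathway genes with enough UMIs in macrophages, 6 were past 1.5-fold higher in 4T1M and 2 lower, where 7.37% and 7.93% of all genes were. The 6 were Cxcl13, the neutrophil marker Csf3r (265 UMIs in 4T1P and 515 in 4T1M), Ppbp (10 and 27), Cxcl5 (4 and 7), Cxcr1 (8 and 17) and Cxcr6 (2 and 9). The Csf3r ratio was 0.87 (0.65 to 1.09). Intervals of Cxcl5 (-1.26 to 2.94), Cxcr1 (-0.29 to 2.42) and Cxcr6 (-0.19 to 5.33) held 0, so no direction is read from them.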
